A study of Mus musculus with 24 samples.

Results

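Mouse ERVK elements other than the IAP and ETn/MusD families were followed as 253 repeat subfamilies. They are the rows of the MeRIP-seq count table that the repeat annotation places in ERVK, less every name that starts with IAP, ETnERV, MMETn or RLTRETN (25 IAP and 5 ETn/MusD rows) and less RNERVK23-int, RLTR10F and RLTR30D_RN. The table holds 285 ERVK subfamilies, 1153 repeat subfamilies and 49090 features with the genes, and 245 of the 253 members passed the filter on low counts with 22621 features in all. By name 31 members are internal parts, which hold the retroviral coding sequence, and 222 are long terminal repeats (LTRs), of which 214 were tested.

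The study measured N6-methyladenosine (m6A) in mouse embryonic stem (ES) cells by MeRIP-seq, which sequences RNA pulled down with an antibody against m6A (the IP) and the same RNA before pulldown (the input). WT26 is a wild-type line of mixed 129/Sv and C57Bl6 background, and Mettl14 KO is clone A10 derived from it, with a homozygous frameshift. RBC, an engineered line of the same mixed background, carries BirA-V5 and Cre-ERT2 at Rosa26, and Mettl3 KO is clone 2c4d derived from RBC. Each knockout thus stands for 1 clone, and both Mettl3 KO and its control carry those transgenes. Each of the 4 lines had 2 biological replicates of nuclear RNA, each divided into input and IP, and 16 libraries were used.

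ERVK elements are class II endogenous retroviruses of the betaretrovirus type. An intact provirus has an internal part flanked by LTRs, which hold the promoter, while most copies in the genome are solitary LTRs left by recombination. In ES cells KRAB zinc finger proteins, TRIM28 and SETDB1 keep many ERVK copies silent, and METTL3 and METTL14 together form the enzyme that places m6A on nuclear RNA. Several members are known for such roles: MMERVK10C is a target of TRIM28 and SETDB1, RLTR9 LTRs carry sites for pluripotency factors, and RLTR13D5 is known as an enhancer in trophoblast stem cells.

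Members took between 2.09% and 2.59% of the reads in the 8 input libraries and between 1.26% and 2.87% in the 8 IP libraries. Totals ranged from 9394163 to 28441282 counts over the 16 libraries. In every group replicate 1 was the deeper library. The replicates also stood apart in the IP: the deviations of same-numbered IP libraries from their line's mean correlated between lines by 0.59 to 0.802 across features (inputs by 0.248 to 0.451), and the common biological coefficient of variation was 0.345 among IP libraries against 0.159 among inputs. Values are therefore given for each replicate. Of the targeted genes, Mettl14 had 245.9 and 281.6 normalized counts in the inputs of WT26 and 261.9 and 229.4 in Mettl14 KO, and Mettl3 had 537.4 and 537.7 for RBC against 553.1 and 473.7 for Mettl3 KO. Neither difference passed the test (adjusted p = 0.986 and 0.964), so read counts over the whole gene do not check these labels. The 8 ES cell markers were all read in each line, while summed counts of 6 fibroblast feeder markers ran from 20.2 to 107.9. In bulk RNA, fewer cells that express an element and less RNA per cell cannot be told apart.

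A normalized count is the read count divided by the library's size factor. Since element lengths were not used, it ranks subfamilies by reads and not by transcript number. The 10 members with most input reads held 25.7% of all member input reads, internal parts together 20.3%, and 114 members had a mean of at least 1000 normalized counts over the 8 inputs. RMER6A, an LTR, led with a mean of 21092, followed by the LTRs RMER19B with 17230.2, RLTR17B_Mm with 12724, RMER4B with 11028 and ERVB7_1-LTR_MM with 10554. The internal parts MMERVK10C-int, MYSERV6-int, RLTR45-int and MMERVK9C_I-int had means of 10322, 8992, 8717 and 6915, with the LTR RLTR20A4 between the last pair at 7348. RMER6A varied little among lines: its inputs were 23372 and 19494 for WT26, 20666 and 19876 for Mettl14 KO, 21968 and 19755 for RBC and 22830.3 and 20777 for Mettl3 KO. MMERVK10C-int, the internal part whose LTRs include RLTR10C, had 12666 and 11436 for WT26, 10820.2 and 10216 for Mettl14 KO, 10441 and 9437 for RBC and 8786 and 8772 for Mettl3 KO, with the highest counts in WT26 and the lowest in Mettl3 KO, and was not called in any input comparison. ERVB7_1-LTR_MM was less even, with 7838 and 10234 for WT26, 7739.9 and 10129 for Mettl14 KO, 11899 and 17144 for RBC and 8108 and 11339 for Mettl3 KO, both RBC libraries above every other one. Reads that map to several near-identical subfamilies were shared among them by the counting program, so single subfamilies of one name group are uncertain.

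The first question was whether loss of Mettl14 or Mettl3 changed the level of these RNAs in the input. Few members passed the test. In the fit to all 16 libraries, features with an adjusted p no higher than 0.05 were called, and SE is the standard error of a log2 fold change. None of the 245 members was called between Mettl14 KO and WT26, against 0.398% of all features, and 10 had an unadjusted p under 0.05 (DESeq2 called 1). The median log2 fold change of members was 0.06, against 0.02 over all features. Between Mettl3 KO and RBC 1 member fell, against 0.76% of all features called, with a member median of 0.03 against 0.01. As the IP libraries spread more than the inputs, the 8 input libraries were also fitted alone, a choice made after the data had been seen. That fit called 8 of 244 members in each comparison, against 7.28% of all features for Mettl14 KO and 9.5% for Mettl3 KO. In Mettl14 KO 3 members rose and 5 fell, and in Mettl3 KO 2 rose and 6 fell. The summed counts of the 8 ES cell markers were lower in both knockouts as well, 17891 to 18038 for WT26 against 12660.3 to 14722 for Mettl14 KO and 15809 to 17506 for RBC against 11696 to 11863 for Mettl3 KO. In the inputs alone 2 of them fell in Mettl14 KO and 3 in Mettl3 KO, Pou5f1 in both (adjusted p = 0.049 and 0.0333), and in the 16 libraries none was called. Summed 2-cell-like markers (5 genes) ran from 114.7 to 212 for WT26, 30.5 to 86.3 for Mettl14 KO, 42.9 to 104.5 for RBC and 30.5 to 36.3 for Mettl3 KO, with Zscan4f lower in Mettl14 KO in the inputs alone (adjusted p = 0.0106). Of 3 neuroectoderm markers Pax6 was higher in Mettl14 KO in the inputs alone (log2 fold change 1.31, adjusted p = 0.0234), and none was called in Mettl3 KO. Pax6 was also higher in RBC than in WT26 in that fit (adjusted p = 0.0372). No primitive endoderm, feeder or mesoderm marker was called in either knockout. The part of these markers in the member calls was not tested.

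RLTR45-int, the internal part of the RLTR45 element and the eighth most read member, was the member that fell in the larger fit. Its input counts were 13767 and 14885 for WT26, 4608 and 6505 for Mettl14 KO, 11304 and 11299 for RBC and 3716 and 3654 for Mettl3 KO. Both libraries of each knockout lay below every library of both controls, without overlap. The log2 fold change was -1.62 (SE 0.29, adjusted p = 0.019) for Mettl3 KO and -1.37 (SE 0.288, adjusted p = 0.064) for Mettl14 KO. Leaving out any 1 replicate of RBC or Mettl3 KO ended the Mettl3 KO call in that fit, where the remaining library is taken to vary like the other groups, with log2 fold changes from -1.61 to -1.63 and adjusted p from 0.0665 to 0.28. In the inputs alone adjusted p was 2.5e-04 in Mettl3 KO and 0.00117 in Mettl14 KO, and the call was kept in both comparisons when any replicate was left out. Its LTR, RLTR45, had 2187 and 2224 for WT26, 1672 and 1795 for Mettl14 KO, 1906 and 1743 for RBC and 1359 and 1386 for Mettl3 KO. In the inputs alone RLTR45 fell in Mettl3 KO by 0.41 on the log2 scale (adjusted p = 0.0457), and its log2 fold change in Mettl14 KO was -0.35 (adjusted p = 0.0935).

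A second internal part was lower in both knockouts in the inputs alone. ERVB4_2-I_MM-int, from a betaretrovirus-like ERVB element, had 1949 and 2158 for WT26, 999.9 and 962 for Mettl14 KO, 1912 and 1497 for RBC and 820.2 and 806 for Mettl3 KO, again with no overlap between knockouts and controls. It fell by 1.06 on the log2 scale in Mettl14 KO (adjusted p = 0.0023) and by 1.07 in Mettl3 KO (adjusted p = 0.00153), and both calls were kept whichever replicate was left out. RMER17A-int went the other way, with 402 and 406 for WT26, 560.5 and 549 for Mettl14 KO, 451 and 457 for RBC and 670.3 and 642 for Mettl3 KO. Its rise was 0.46 in Mettl14 KO (adjusted p = 0.0466) and 0.53 in Mettl3 KO (adjusted p = 0.0208), and both calls were lost whichever replicate was left out. These 3 members, 2 lower and 1 higher, were the ones called in both comparisons with the same direction.

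**Figure D1:**
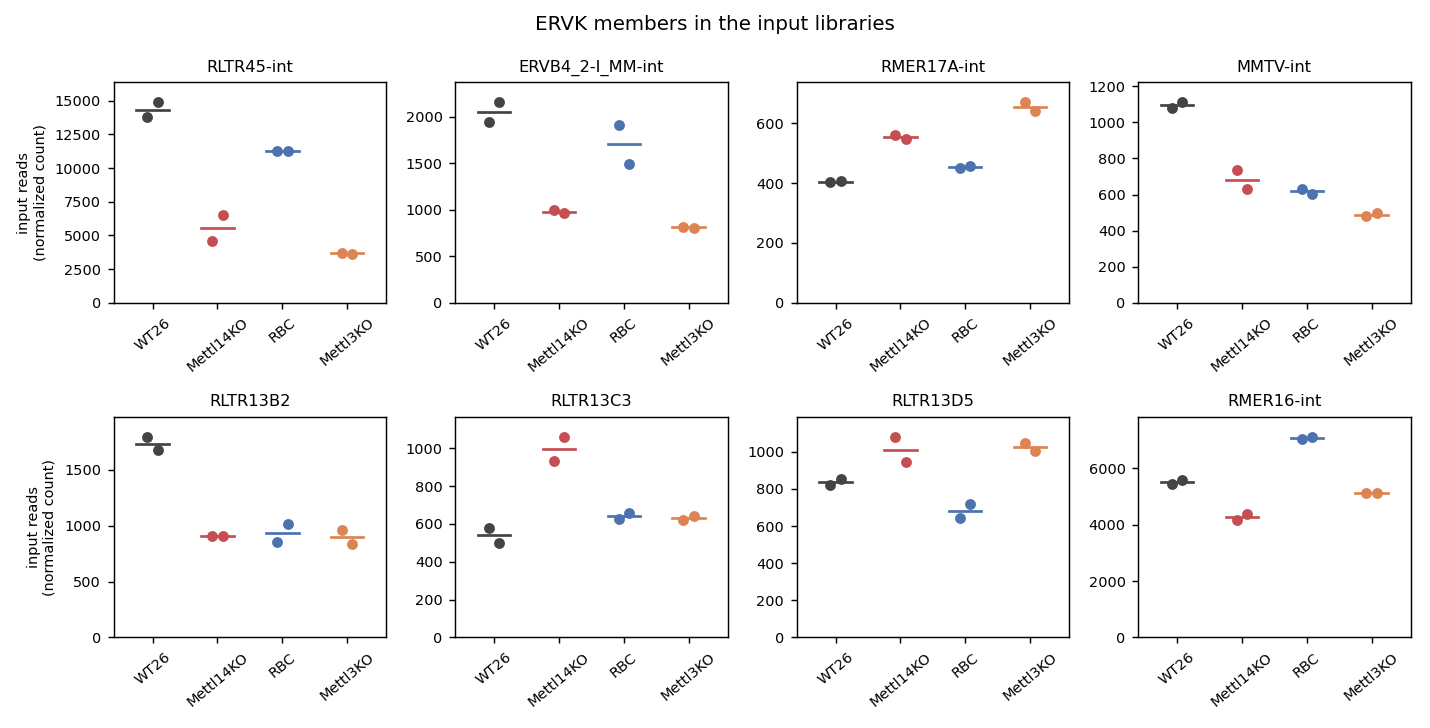
Normalized input counts (vertical axis, linear from 0) of 8 members in the 4 lines, each point 1 library (replicate 1 on the left, replicate 2 on the right) and each line the mean of 2. RLTR45-int and ERVB4_2-I_MM-int lie lower in both knockouts than in either control, RMER17A-int lies higher, and RLTR13B2 and MMTV-int separate WT26 from the other 3 lines.

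The other calls in the inputs alone were made in 1 knockout each. In Mettl14 KO RLTR13B2 fell by 0.93, ERVB4_3-LTR_MM by 1.17 and MMTV-int, the internal part of mouse mammary tumour virus elements, by 0.68 on the log2 scale (adjusted p = 0.00334, 0.0236 and 0.00952). RLTR13C3 rose by 0.87 (adjusted p = 0.00434) and RLTR19D, a thinly read LTR, by 1.88 (adjusted p = 0.0144). RLTR19D had 13.4 and 13.6 for WT26, 52.9 and 46.3 for Mettl14 KO, 16.9 and 12.6 for RBC and 14.5 and 9.6 for Mettl3 KO, so its counts stood out in Mettl14 KO against the other 3 lines. In Mettl3 KO RMER16A3 fell by 0.64, RMER16-int by 0.46 and ERVB5_1-I_MM-int by 0.95 (adjusted p = 0.0155, 0.0218 and 0.0454). RLTR13D5, the trophoblast enhancer LTR, rose there by 0.59 (adjusted p = 0.0151), from 643 and 718 for RBC to 1049 and 1005 for Mettl3 KO. Its sister RLTR13D6 had log2 fold changes of -0.02 and 0.01 in Mettl14 KO and Mettl3 KO and was called in neither. RMER16A3 and RMER16-int share the RMER16 name, and both libraries of Mettl3 KO were below those of RBC for each. Whichever replicate was left out, 4 of the 8 calls were kept for Mettl14 KO (RLTR45-int, ERVB4_2-I_MM-int, RLTR13B2 and RLTR13C3) and 2 for Mettl3 KO, where the count ran from 2 to 4 without 1 replicate against 4 to 9 for Mettl14 KO.

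The control lines themselves differed for some of these members. In the 16 libraries no member was called between RBC and WT26, against 0.584% of all features, with 4 at an unadjusted p under 0.05 (DESeq2 called 0). In the inputs alone 3 fell, against 4.34% of all features. RLTR13B2 had 1792 and 1676 for WT26, 907 and 911 for Mettl14 KO, 851 and 1014 for RBC and 958 and 838 for Mettl3 KO, with the WT26 libraries alone high, and was lower in RBC, with a log2 fold change of -0.90 (SE 0.131, adjusted p = 0.00409). MMTV-int had 1079 and 1111 for WT26, 736 and 629 for Mettl14 KO, 633 and 605 for RBC and 482 and 496 for Mettl3 KO, again highest in WT26, with a log2 fold change of -0.82 (SE 0.125, adjusted p = 0.0049) between the controls. RLTR44E was lower as well, at -0.72 (SE 0.165, adjusted p = 0.0327), and lost the call whichever replicate was left out, whereas the other 2 kept it. For these 3 the WT26 level, against which Mettl14 KO was read, stood above that of RBC.

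The difference between the 2 knockout effects was tested directly. None of the 245 members differed in the 16 libraries, against 0.141% of all features, with 1 at an unadjusted p under 0.05 (DESeq2 called 0). In the inputs alone 2 members differed, against 2.66% of all features: RLTR13B2, with a change 0.88 higher in Mettl3 KO (adjusted p = 0.0335), and RLTR13C3, with a difference of -0.90 (SE 0.185, adjusted p = 0.0303). RLTR13C3 had 581 and 501 for WT26, 933 and 1059 for Mettl14 KO, 627 and 660.1 for RBC and 620.3 and 644 for Mettl3 KO, with Mettl14 KO above the other lines. With each of the 8 replicates left out in turn, each call held in 1 case: RLTR13C3 without replicate 1 of Mettl14 KO and RLTR13B2 without replicate 2 of RBC. Across the 245 tested members Pearson's correlation between the input changes of Mettl14 KO and Mettl3 KO was 0.437, a description over subfamilies that share libraries and reads.

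Genes known to silence ERVK elements were read in the same inputs. Of 32 such genes none was called in the 16 libraries in either knockout. In the inputs alone 4 fell in Mettl14 KO and none rose, and 2 fell and 1 rose in Mettl3 KO, against the 7.28% and 9.5% of all features called in either direction. Trim28, the corepressor that KRAB zinc finger proteins recruit, was lower in both, by log2 fold changes of -0.50 and -0.58 (adjusted p = 0.0393 and 0.0178). Setdb1, the methyltransferase that places H3K9me3 at ERVK copies, fell by 0.69 in Mettl14 KO (adjusted p = 0.00596), with Resf1 and Dnmt3l. Between the control lines, RBC against WT26, 2 of the 32 fell and 1 rose in the inputs alone. Resf1 was among those that fell (log2 fold change -0.68, adjusted p = 0.00822), so its WT26 level stood above that of RBC. Dnmt1 fell by 0.53 in Mettl3 KO (adjusted p = 0.0186), where Dnmt3a rose by 0.59 (adjusted p = 0.0212). Among 14 genes of the m6A machinery, Mettl3 rose and Ythdf2 fell in Mettl14 KO and Rbm15 rose in Mettl3 KO in the inputs alone, with none called in the 16 libraries. Whether any of these genes bears on the members was not tested.

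The second question was how strongly each member was recovered with the m6A antibody relative to other features. The size factors put the typical feature near equal IP and input in each line, so every ratio is relative to that feature. It is not the share of RNA recovered, and a loss of m6A common to most features would not appear in it. Most members were recovered less than the typical feature in every line, and repeats outside ERVK less still. A member was called higher or lower in the IP at an adjusted p of at most 0.05 with a log2 fold change of IP over input beyond 1 in size. In WT26 2 members were higher and 91 lower of 245, against 14.5% of all features higher and 13.5% lower. In RBC 3 were higher and 45 lower (13.4% and 11.1% of all features). In Mettl14 KO none was higher and 41 were lower (11.9% and 9.91%), and in Mettl3 KO none was called (2.54% and 1.86%), with 33 members at an unadjusted p under 0.05 and 1 called by DESeq2. The median log2 fold change over members was -1.004 in WT26, -0.84 in Mettl14 KO, -0.86 in RBC and -0.45 in Mettl3 KO, against 0.02, 0.01, 0.02 and -0.01 over all features. The 820 tested repeat subfamilies outside ERVK had lower medians, of -1.41, -1.25, -1.29 and -0.79 in the same order, and 544 of them were lower in WT26, 428 in Mettl14 KO, 456 in RBC and 26 in Mettl3 KO. With input and IP of one RNA treated as pairs, RBC had 2 members higher and 70 lower. Scaled by total counts, all features shifted to medians of 0.45 in WT26, 0.45 in Mettl14 KO, 0.49 in RBC and 0.37 in Mettl3 KO. Members then had 6 higher and 15 lower in WT26, 3 and 5 in Mettl14 KO and 4 and 6 in RBC, while their median stayed below that of all features by 1.03, 0.86, 0.91 and 0.46.

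Ratios were lower in replicate 2 of every line. The median log2 ratio of IP to input over members was -0.70 and -1.49 for the replicates of WT26, -0.49 and -1.38 for those of Mettl14 KO, -0.47 and -1.47 for RBC, and -0.19 and -0.76 for Mettl3 KO. Genes had medians between -0.02 and 0.11 in the same 8 pairs, and repeats outside ERVK were below the members in all 8, with -1.08 and -1.83 for WT26 and -0.83 and -1.88 for RBC. Replicate 2 was below replicate 1 for 222 of 244 members in WT26, 228 of 244 in Mettl14 KO, 227 of 245 in RBC and 229 of 244 in Mettl3 KO, against 47.2% to 50.2% of all features and 85.3% to 91.7% of repeats outside ERVK. The member median was below 0 in all 8 pairs, and in both replicates Mettl3 KO had the highest of the 4 lines. Without replicate 2 of WT26, Mettl14 KO or RBC no member of that line was called, and without its replicate 1 there were 97, 61 and 93, each time with the spread of the other groups standing in for the line left with 1 pair. Without either replicate of Mettl3 KO the count in Mettl14 KO was 23. The part of the replicate in these counts was not tested.

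**Figure D2:**
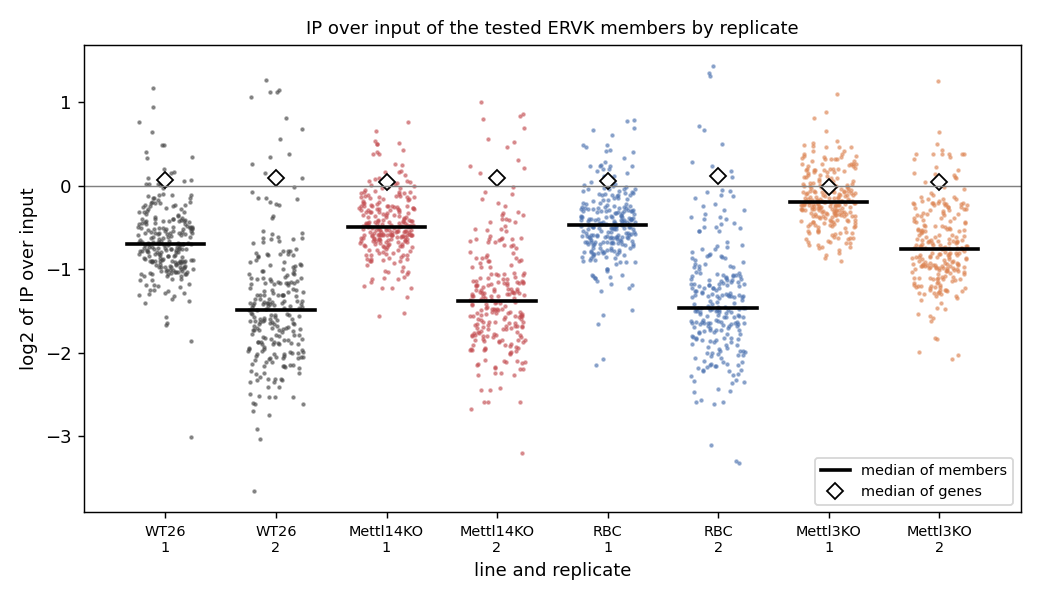
Log2 ratio of IP to input (vertical axis, normalized counts) of the tested members in each line and replicate, each point 1 member, with the member median as a black bar and the gene median as a diamond. Member medians lie between -0.19 and -1.49, lower in replicate 2 of each line, while gene medians stay between -0.02 and 0.11.

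Lower calls were found in most name groups. Of all features 13.5% were called lower in WT26, 9.91% in Mettl14 KO and 11.1% in RBC. Repeats outside ERVK had much larger shares called lower, by the counts given above. The shares of the MLTR, RMER and RLTR13 groups and of the internal parts lay below those of these other repeats in each line. Of the MLTR members, all LTRs by name, 10 of 17 were lower in WT26 and 8 of 17 in both Mettl14 KO and RBC, with medians of -1.25, -1.05 and -1.01. Of 44 tested RMER members 20 were lower in WT26, 8 in Mettl14 KO and 9 in RBC, and of 23 RLTR13 members 8, 4 and 3, the last near the share of all features. All 3 MYSERV members were lower in WT26 and 2 in each of Mettl14 KO and RBC. Among internal parts 13 of 31 were lower in WT26, 5 in Mettl14 KO and 5 in RBC, and the medians of internal parts and LTRs were close in WT26 (-1.04 and -0.999) and in RBC (-0.83 and -0.87). The RLTR10 and MMERVK10 group had medians nearer to 0 in the control lines, of -0.25 in WT26, -0.40 in Mettl14 KO, -0.33 in RBC and -0.47 in Mettl3 KO over 12 members, and 1 higher and 1 lower call in each control line. This group was singled out after its values had been seen.

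Among the lowest ratios of well-read members was that of MLTR18D_MM. Its normalized counts were 1192 and 1254 for WT26, 1357 and 1663 for Mettl14 KO, 1351 and 1463 for RBC and 1560.4 and 1593 for Mettl3 KO in the inputs and 379.7 and 192 for WT26, 582 and 276 for Mettl14 KO, 629.5 and 242 for RBC and 834 and 538 for Mettl3 KO in the IPs. Every IP library was below its input, and the log2 fold change was -2.09 (SE 0.448, adjusted p = 0.00765) in WT26, -1.81 (SE 0.444, adjusted p = 0.0147) in Mettl14 KO, -1.68 (SE 0.441, adjusted p = 0.0167) in RBC and -1.20 (SE 0.435, adjusted p = 0.11) in Mettl3 KO. MLTR18A_MM, of the same name group, had log2 fold changes of -1.87, -1.76, -1.66 and -1.09 in that order of lines, called in the first 3. MLTR32C_MM reached -2.07 in WT26, RLTR18B -1.84 and RLTR12G -1.78 (adjusted p = 0.00849, 0.00985 and 0.0106). In Mettl14 KO and RBC RLTR26D_MM was at -1.66 and -1.61 and ERVB4_3-LTR_MM at -1.76 and -2.03, all called. Among members with at least 20 counts RMER3D3 was lowest in RBC with -2.06, from 21.4 and 51.7 counts in the inputs and 10.7 and 6 in the IPs, and so rests on few reads. RLTR46B, the lowest of the members with at least 20 counts in Mettl3 KO, had -1.35 (SE 0.416, adjusted p = 0.0706) there. The internal parts MYSERV6-int and MYSERV-int were lower in WT26 (-1.39 and -1.31), Mettl14 KO (-1.05 and -1.05) and RBC (-1.14 and -1.06). MMERVK10C-int, in contrast, was called in no line, with -0.90, -0.83, -0.79 and -0.47.

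The members called low recurred between lines. Of the 91 lower in WT26 and the 45 lower in RBC, 42 were shared, which is 46.2% of the first and 93.3% of the second. Mettl14 KO shared 38 of its 41 with WT26 (92.7%), and 29 members were lower in WT26, Mettl14 KO and RBC. Such overlaps were not counted among all features or other repeats, so they are not shown to be particular to the members. Across the 245 tested members the fitted log2 ratios of WT26 and RBC had a Pearson correlation of 0.882, those of WT26 and Mettl14 KO 0.791 and those of RBC and Mettl3 KO 0.684. These are descriptions over subfamilies that share reads. The mean input level and the ratio in WT26 had a Pearson correlation of -0.02 on the log2 scale over the same members.

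A few members had higher normalized counts in the IP than in the input. The normalized counts of RLTR10D, an LTR, were 644 and 699.5 for WT26, 674 and 737 for Mettl14 KO, 676 and 906 for RBC and 638 and 605 for Mettl3 KO in the inputs and 1232 and 1464 for WT26, 1063 and 1331 for Mettl14 KO, 1167 and 2248 for RBC and 797 and 752 for Mettl3 KO in the IPs. Each IP library was above its input, with log2 fold changes of 1.01 (SE 0.281, adjusted p = 0.0173) in WT26 and 1.11 (SE 0.281, adjusted p = 0.0149) in RBC, the one member called higher in both. It was at 0.76 (SE 0.28, adjusted p = 0.0586) in Mettl14 KO and 0.32 (SE 0.279, adjusted p = 0.497) in Mettl3 KO. RLTR9E, from the LTR group that carries pluripotency factor sites, had 3847 and 3363 for WT26, 3666 and 3087 for Mettl14 KO, 4021 and 4080.5 for RBC and 3431 and 3524 for Mettl3 KO in the inputs and 5406 and 7438 for WT26, 4380.5 and 4990.5 for Mettl14 KO, 6138 and 10387 for RBC and 4228 and 4577 for Mettl3 KO in the IPs. It was higher in RBC, at 1.03 (SE 0.27, adjusted p = 0.0168), and in WT26 its log2 fold change of 0.83 missed the fold limit with an adjusted p of 0.0304. Of the other RLTR9 members, RLTR9A, RLTR9B and RLTR9D had log2 fold changes of -0.95, -0.99 and 0.15 in WT26, and -1.03, -1.04 and -0.27 in RBC. SRV_MM-int, an internal part with ratios of 0.64 and 1.27 for WT26, 0.43 and 1.005 for Mettl14 KO, 0.66 and 1.44 for RBC and 0.35 and 0.38 for Mettl3 KO on the log2 scale, was higher in RBC, at 1.07 (SE 0.278, adjusted p = 0.0161). ERVB7_4-LTR_MM was higher in WT26 alone, with ratios of 1.17 and 1.12 for WT26, 0.77 and 0.52 for Mettl14 KO, 0.41 and 0.29 for RBC and -0.06 and 0.15 for Mettl3 KO and a log2 fold change of 1.15 (SE 0.236, adjusted p = 0.0072). Its relative ERVB7_1-LTR_MM, among the most read LTRs, was at -0.10 in WT26 and 0.48 in Mettl3 KO and was not called. In each of the 4 lines RLTR10D, RLTR9E, RLTR50B and SRV_MM-int had both ratios above 0.

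**Figure D3:**
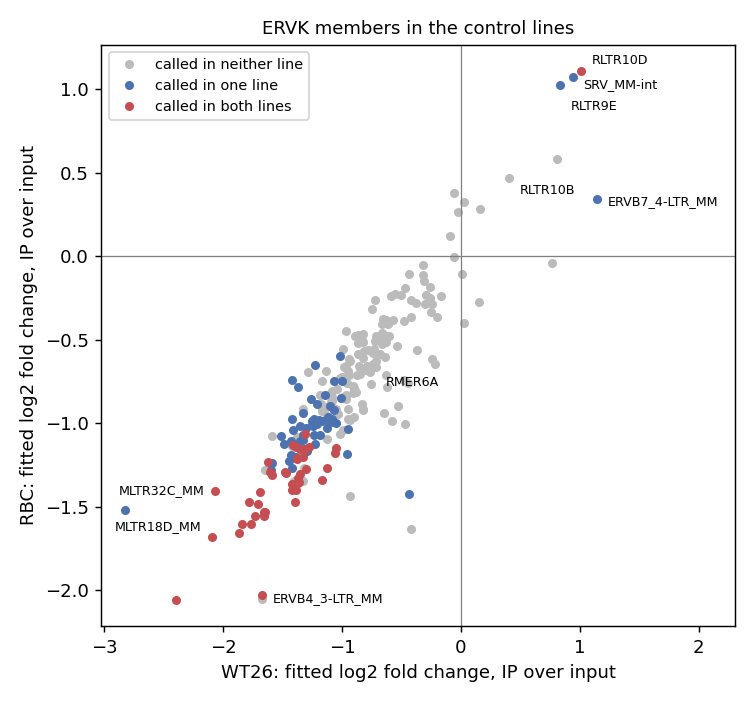
Fitted log2 fold change of IP over input of the 245 tested members in WT26 (horizontal axis) and RBC (vertical axis), each point 1 member. Blue points are called in 1 line and red ones in both, most points lie below 0 on both axes, and RLTR10D, RLTR9E, SRV_MM-int and ERVB7_4-LTR_MM lie at the upper right.

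The third question was whether the knockouts changed this relative recovery. In the 16 libraries no member and none of the 22621 features was called for a change of IP over input in either knockout (0 percent of features in both). At an unadjusted p under 0.05 there were 1 member for Mettl14 KO and 2 for Mettl3 KO, and DESeq2 called 0 in both. The median change over members was 0.17 for Mettl14 KO, against 0.02 over all features, and 0.47 for Mettl3 KO, against 0.01. Of the members 191 of 245 had a change above 0 in Mettl14 KO and 227 of 245 in Mettl3 KO. The subfamilies share libraries and reads, so these are not independent counts. Shares of all features and of repeats outside ERVK follow by replicate number, the latter not far below those of the members. Compared by replicate number, the ratio was higher in Mettl3 KO than in RBC for both numbers in 199 of 244 members (81.6%, against 35.4% of all features and 76.3% of repeats outside ERVK), with medians of 0.30 for number 1 and 0.74 for number 2, where repeats outside ERVK had 0.30 and 0.71. In Mettl14 KO this held for 132 of 243 members (54.3%, against 26.9% and 46.6%), with medians of 0.19 and 0.12. Among members with a mean of at least 20 counts the largest changes without a call were RLTR50A (0.91), ERVB2_1-I_MM-int (0.75) and RLTR46B (-0.73) for Mettl14 KO, and RMER3D3 (1.41), RLTR10B (-1.36) and ERVB4_3-I_MM-int (1.17) for Mettl3 KO, with adjusted p of 0.854 or more.

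A further fit kept input and IP of one RNA as pairs and gave the IP a term for the replicate number shared by all lines, a choice made after the data had been seen. For Mettl14 KO it called none of the 245 members, against 0.0265% of all features called higher and 0.0265% lower. At an unadjusted p under 0.05 there were 24 members, a count at another threshold that is not set against those shares. For Mettl3 KO 86 members were higher and 3 lower, against 5.59% of all features higher and 7.58% lower. Of the 820 repeats outside ERVK 216 were higher and 15 lower. The count rests on single libraries: without replicate 2 of RBC it was 0, without replicate 2 of Mettl3 KO 10 higher and 2 lower, without replicate 1 of RBC 11 and 2, and without replicate 1 of Mettl3 KO 163 and 6. For a member below its input in RBC, a higher value is a ratio nearer to that of the input. By name group 12 of 17 MLTR members, 10 of 23 RLTR13, 19 of 44 RMER and 8 of 31 internal parts were higher. So were 3 of 21 ERVB, 1 of 3 MYSERV and 1 of 12 tested RLTR9 members, and none of the 12 RLTR10 and MMERVK10 members.

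The highest changes called in that fit, among members with at least 20 counts, were RLTR12B2 at 1.05 (SE 0.249, adjusted p = 0.014), RLTR19B at 1.03 (SE 0.207, adjusted p = 0.00598) and MMTV-int at 0.99 (SE 0.206, adjusted p = 0.00718). RLTR19B had ratios of -0.96 and -2.18 for WT26, -0.64 and -1.91 for Mettl14 KO, -0.79 and -2.57 for RBC and -0.10 and -1.06 for Mettl3 KO on the log2 scale, highest in Mettl3 KO for each number. MMTV-int had -0.53 and -2.41 for WT26, -0.16 and -2.25 for Mettl14 KO, -0.18 and -2.18 for RBC and 0.47 and -0.75 for Mettl3 KO, with a gap between replicates in each line that exceeded the change. RMER6A, the most read member, had -0.50 and -1.41 for WT26, -0.20 and -1.04 for Mettl14 KO, -0.30 and -1.23 for RBC and 0.05 and -0.22 for Mettl3 KO and a change of 0.68 (SE 0.181, adjusted p = 0.0202), and RMER16-int, whose input fell, had a change of 0.63 (SE 0.17, adjusted p = 0.0219). The change of MLTR18D_MM was 0.59 (SE 0.193, adjusted p = 0.0473). RLTR45-int, which fell in both knockouts in the inputs alone, had changes in recovery of -0.19 and -0.08 in Mettl14 KO and Mettl3 KO and was called in neither (adjusted p = 1 and 0.807).

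In that fit, added after the data had been seen, the 3 members lower in Mettl3 KO were RLTR10B, RLTR10D and RLTR9E. Without the number term none of them was called, with pairs or without. All are LTRs with more IP than input in RBC. The RBC ratio is itself part of the comparison, so this shared trait partly follows from the calls. The normalized counts of RLTR10B were 805 and 604 for WT26, 578 and 482 for Mettl14 KO, 574 and 381 for RBC and 357 and 387 for Mettl3 KO in the inputs and 899 and 968 for WT26, 655 and 664 for Mettl14 KO, 699 and 626 for RBC and 232 and 168 for Mettl3 KO in the IPs. Its IP exceeded its input in all 6 pairs of the other lines and was below it in both pairs of Mettl3 KO, with ratios of 0.16 and 0.68 for WT26, 0.18 and 0.46 for Mettl14 KO, 0.28 and 0.71 for RBC and -0.62 and -1.21 for Mettl3 KO on the log2 scale and no overlap between Mettl3 KO and the rest. The change was -1.37 (SE 0.223, adjusted p = 0.00227) for Mettl3 KO and -0.10 (SE 0.211, adjusted p = 1) for Mettl14 KO. RLTR10D, with ratios of 0.94 and 1.07 for WT26, 0.66 and 0.85 for Mettl14 KO, 0.79 and 1.31 for RBC and 0.32 and 0.31 for Mettl3 KO, changed by -0.73 (SE 0.177, adjusted p = 0.0152) in Mettl3 KO, and RLTR9E, with 0.49 and 1.15 for WT26, 0.26 and 0.69 for Mettl14 KO, 0.61 and 1.35 for RBC and 0.30 and 0.38 for Mettl3 KO, by -0.64 (SE 0.177, adjusted p = 0.0239). Both kept ratios above 0 in Mettl3 KO, below those of RBC in each case. Without 1 replicate, RLTR10B and RLTR10D kept their calls when replicate 1 of RBC or replicate 2 of Mettl3 KO was left out. They lost them without replicate 2 of RBC, while RLTR9E lost its call in these 3 cases. For the remaining case, without replicate 1 of Mettl3 KO, the called members were not listed by name. In Mettl14 KO the changes of RLTR10D and RLTR9E were -0.25 and -0.34, and neither was called. SRV_MM-int had a change of -0.66 (SE 0.234, adjusted p = 0.064) in Mettl3 KO and was not called. RLTR10A and RLTR10C, of the same name group as RLTR10B, had changes of 0.28 and 0.05 in Mettl3 KO (adjusted p = 0.286 and 0.876), and their IP was below input in every pair.

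**Figure D4:**
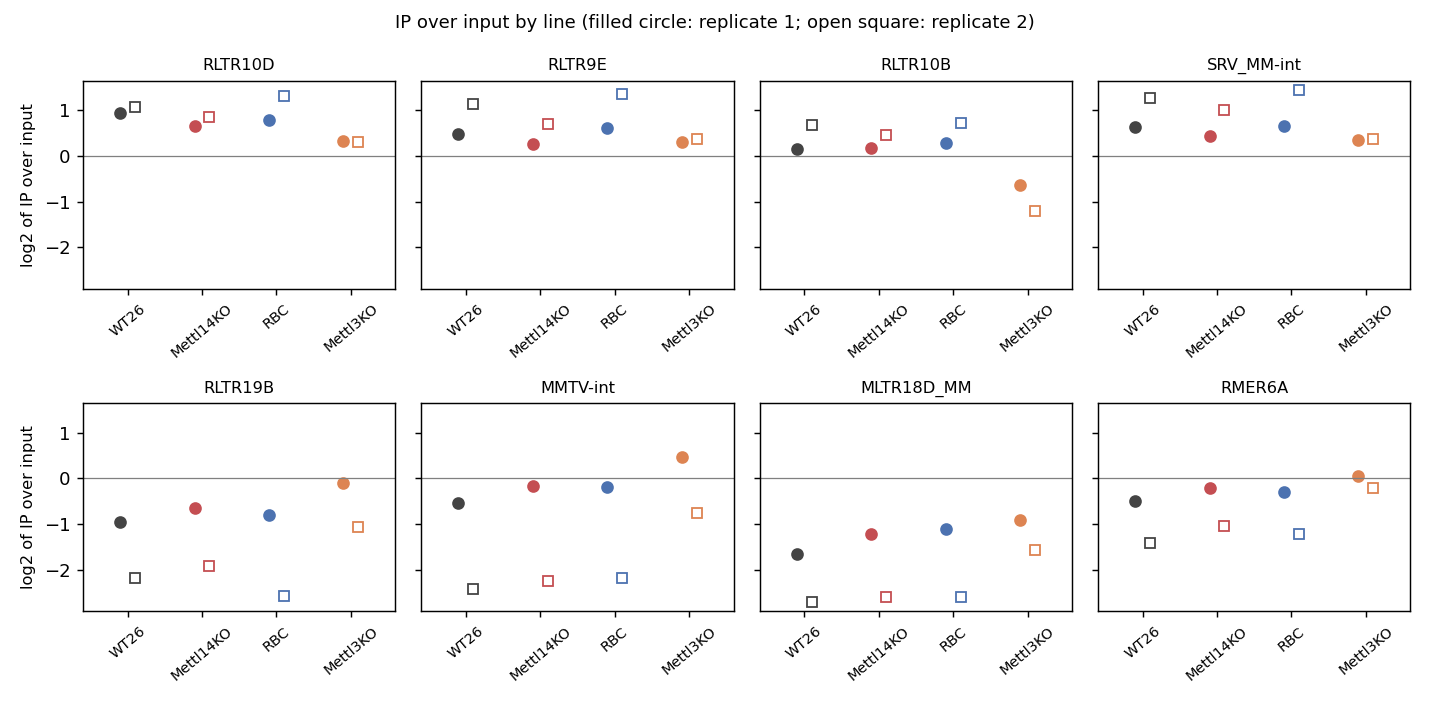
Log2 ratio of IP to input (vertical axis) of 8 members in the 4 lines, filled circles for replicate 1 and open squares for replicate 2. The replicate means of RLTR10D, RLTR9E, RLTR10B and SRV_MM-int are lowest in Mettl3 KO, while RLTR19B, MMTV-int, MLTR18D_MM and RMER6A are highest there and lie lower in replicate 2 than in replicate 1 of each line.

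**Figure D5:**
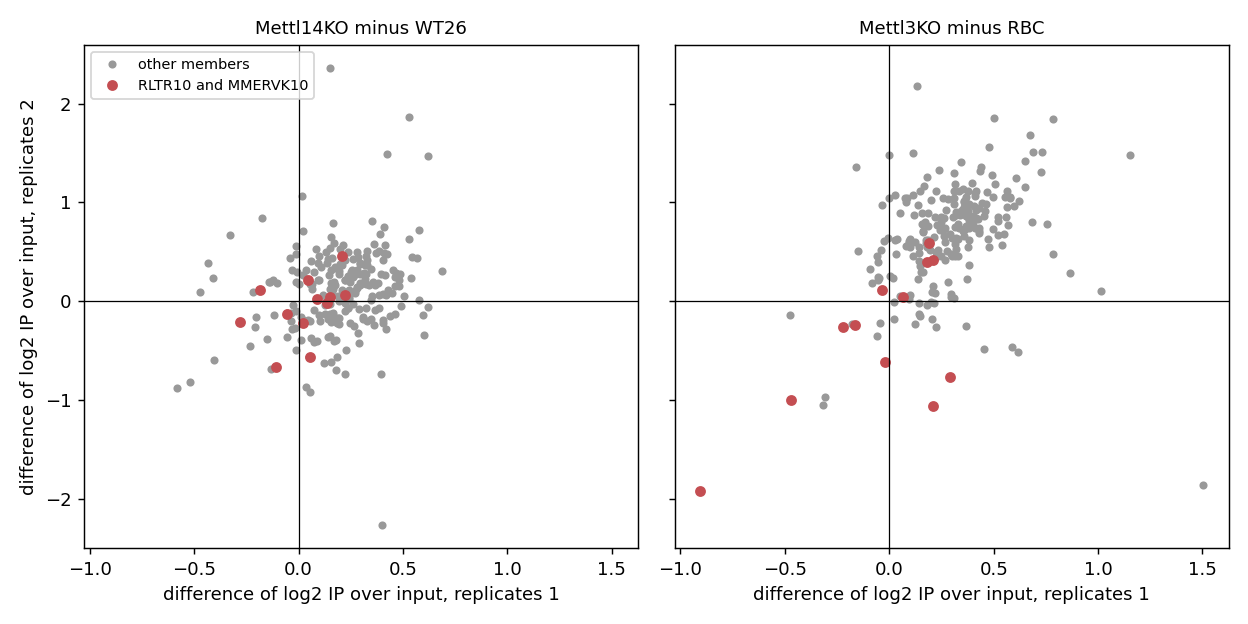
Difference between knockout and control in the log2 ratio of IP to input, replicates 1 on the horizontal and replicates 2 on the vertical axis, for members with a mean of at least 20 normalized input counts (grey) and the RLTR10 and MMERVK10 members among them (red). For Mettl3 KO minus RBC most points lie above 0 on both axes, with RLTR10B at the lower left.

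Of the 8 members that did not pass the filter on low counts, RLTR43B had no read in any library, and RLTR43A, RMER3D2, RMER3D1, RLTR9A4, RLTR12F, RLTR46 and RLTR3_Mm had 1, 11, 33, 34, 54, 58 and 125 reads over all 16 libraries. They were left out of the tests.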

How the data were processed

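The authors trimmed the reads of 16 MeRIP-seq libraries with cutadapt 1.8.1, mapped them to GRCm38 using STAR 2.6.0c, allowing 100 positions per read, and obtained counts with TEtranscripts 2.0.3 in multi mode, which shares reads among repeat copies. They deposited raw counts per gene and repeat subfamily, with 3 MeRIP reactions combined per replicate. The RNA-seq table holds genes and was not used here. The quasi-likelihood test of edgeR 4.0.16 (R 4.3.3, filterByExpr) was applied to 8 groups, with DESeq2 1.42.0 size factors and Benjamini-Hochberg adjustment across the 22621 features tested. A change in recovery is knockout minus control in log2 IP over input. Input and IP of one number come from one RNA, per the methods, and their deviations correlated by 0.2 to 0.287.

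Members and gene lists were chosen with earlier results of these data known. Named members were the 10 with most input reads, up to 5 called per direction and comparison with the largest change or, without calls, the 3 largest (mean of at least 20 normalized counts), and subfamilies known from background. Others called in fits added after seeing the data were named afterwards. Scripts were tested on simulated data. Repeat positions, lengths and sequences were not used here.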

Additional observations from a re-analysis of the deposited data

Results flagged for a closer look

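RLTR13B2 and RLTR13C3 differed between the knockouts in a direct test on the 8 input libraries (edgeR). The log2 change of RLTR13B2 in Mettl3 KO minus that in Mettl14 KO was 0.88, and that of RLTR13C3 was -0.90. Of all features 2.66% were called in that test. With each of the 8 replicates left out in turn, each call held in 1 case. Neither passed the test in the fit to all 16 libraries (adjusted p = 0.802 and 0.95). Both passed in only the libraries compared (0.0296 and 0.0266) and with a replicate block (0.01 and 0.0106). Both of these fits use the same 8 input libraries as the flagged test, so they add no separate support. The replicate numbers are not stated to pair different lines. The WT26 inputs of RLTR13B2 stood above those of RBC.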

How the results depend on the processing

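Results are counts of members called. For input levels in Mettl14 KO, Mettl3 KO, RBC against WT26 and the difference between knockouts, the counts of 0, 1, 0 and 0 became 8, 8, 3 and 2 in the 8 inputs alone, 7, 12, 3 and 2 in only the libraries compared, and 19, 16, 12 and 6 with the replicate number as a replicate block. With no filter on low counts the first 2 were 2 and 2, and Mettl14 KO had 1 with DESeq2 and 1 with total count scaling. For IP over input in WT26, Mettl14 KO and RBC, 93, 41 and 48 became 21, 8 and 10 with total count scaling and 143, 107 and 111 with pairs and a number term on the IP, Mettl14 KO 85 and RBC 84 without the filter, and RBC 73 with DESeq2. Mettl3 KO, with 0, had 1 with DESeq2, 1 with at least 10 counts in every library, 8 without the filter, 3 in only the libraries compared and 10 with pairs and a number term, which also gave 89 for the change in Mettl3 KO. The replicate block of pairs gave 118, 46, 72 and 0 for IP over input and 0 for both changes. Leaving out 1 replicate of a compared line gave 0 to 97 in WT26, 0 to 61 in Mettl14 KO, 0 to 93 in RBC, 0 in the other comparisons, 4 to 9, 2 to 4, 2 to 2 and 0 to 1 in the inputs alone, and 0 to 169 for the 89. Leaving out a replicate of another line gave 70 to 109 in WT26, 23 to 48 in Mettl14 KO, 34 to 57 in RBC and 1 for the input of Mettl3 KO. A line left with 1 replicate is assumed to vary like the others. Total count scaling moved the median input change of all features to 0.13 in Mettl3 KO and -0.10 in RBC against WT26. The causes were not tested. Of 425 alternative values of named members 0 reversed direction, 35 lost and 36 gained the call. The replicate numbers are not stated to mark a shared day. With 2 replicates per group, spread between replicates limits precision more than depth.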

Other observations

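Some members had more IP than input in both replicates of a line. There were 7 of 244 in WT26, 8 of 244 in Mettl14 KO, 8 of 245 in RBC and 16 of 244 in Mettl3 KO. Among all features there were 9269 of 21678, 8761 of 21390, 9115 of 21782 and 8057 of 21743 in that order. Repeats outside ERVK had 39 of 807, 34 of 809, 47 of 809 and 37 of 816. Among members, the Mettl3 KO set held RMER17C, RMER17C2, RMER17D2, BGLII_C and BGLII_Mus, none of which was in the set of another line. It lacked RLTR10B and ERVB7_4-LTR_MM, which were in the sets of the other 3. These members were picked after their values had been seen, and the difference between the sets was not tested.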
